A study of Arabidopsis thaliana with 21 samples.

Results

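The genes described here are the WRKY transcription factor genes of Arabidopsis thaliana, taken as every TAIR10 gene whose symbol or synonym is WRKY followed by a number. The rule found 72 genes among 33056 nuclear genes that are not pseudogenes, all of them protein-coding, out of 27444 protein-coding genes. Numbers run from WRKY1 to WRKY75, with no gene for 5, 37 and 73, and the annotation lists WRKY1 as ZAP1, WRKY16 as TTR1, WRKY44 as TTG2, WRKY52 as RRS1 and WRKY63 as ABO3. The study profiled 2 histone marks by chromatin immunoprecipitation and sequencing in whole seedlings 7 days after germination, all in the Col-0 ecotype, grown in long days on sucrose medium with many seedlings pooled per extraction. H2AK121ub (monoubiquitinated histone H2A) was profiled in the atbmi1a/b/c mutant, which lacks the AtBMI1 RING proteins of Polycomb repressive complex 1 (PRC1) and is written atbmi1abc, in the clf28/swn7 mutant, which lacks the CLF and SWN methyltransferases of Polycomb repressive complex 2 (PRC2) and is written clfswn, and in lhp1, which lacks a protein that binds H3K27me3. H3K27me3 (trimethylated lysine 27 of histone H3) was profiled in atbmi1abc and clfswn. Each mutant library had a Col-0 wild-type control, and each of these 5 comparisons had 2 replicates. In whole seedlings, a lower level at a gene cannot be told apart from fewer cells that carry the mark, and no expression data were used with which to check the tissue.

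WRKY proteins bind DNA through a WRKY domain, a beta sheet that carries the peptide that names the family next to a zinc finger, and most of them recognise a short element called the W-box. Many WRKY genes are switched on by pathogens, salicylic acid, wounding or nutrient starvation, and some act in seed, trichome, root or stem development, so that many are silent in an unstressed seedling. PRC1 monoubiquitinates histone H2A and PRC2 trimethylates histone H3, and both marks are found at genes that are kept off or ready to be induced. The study also found H2AK121ub without H3K27me3 at many transcriptionally active genes. CLF and SWN are the PRC2 methyltransferases of the vegetative plant, and LHP1 associates with chromatin that carries H3K27me3.

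The values are whole reads in peaks, the stretches where a library was enriched over input. A gene was counted as marked in wild type when a peak of both replicates overlapped its body or the 2 kb upstream of its start. For a comparison between mutant and wild type, each gene is represented by the peak with most reads among those found in both replicate tables. Other peaks of the same gene can have another call. Ratios were rescaled with the line that the authors fitted for each table, and are given as log2 of mutant over wild type. A gene is called reduced when the adjusted p-value of edgeR's quasi-likelihood test, with Benjamini-Hochberg adjustment over all peaks, was under 0.05 and the fitted level under 80% of wild type, and increased when the level was over 120%. Reads over all regions of a table came to between 2796942 and 9405576 for H2AK121ub and between 1428193 and 9602490 for H3K27me3 per library. The wild-type H2AK121ub libraries of the 3 mutants held the same values, with 21987 and 22314 peaks, so they are 2 libraries, and the H2AK121ub comparisons share them. Which column is mutant and which is wild type follows the order in which each table names its libraries. For H2AK121ub the shared column bears this out, while for H3K27me3 the direction rests on that order. Peaks of neighbouring genes overlap, and the peak that stands for a WRKY gene was also assigned to at least 1 other gene at 31 of 65 genes in the H2AK121ub comparison of atbmi1abc and at 29 of 40 in its H3K27me3 comparison.

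In wild type, WRKY genes carried both marks more often than genes at large, and H3K27me3 was found at WRKY genes only together with H2AK121ub. H2AK121ub lay at 63 of 72 WRKY genes (87.5%), against 64.2% of all genes. H3K27me3 lay at 40 WRKY genes (55.6%), against 33.5%. All 40 also had H2AK121ub, so that 55.6% of WRKY genes had both marks against 27.1% of all genes. H2AK121ub alone was found at 23 WRKY genes (31.9%, all genes 37.1%), H3K27me3 alone at 0 (all genes 6.4%) and neither mark at 9 (12.5%, all genes 29.4%). These shares are counts without a test. With the other set of wild-type H3K27me3 libraries, the controls of clfswn, 41 WRKY genes had H3K27me3, since WRKY17 was added.

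**Figure D1:**
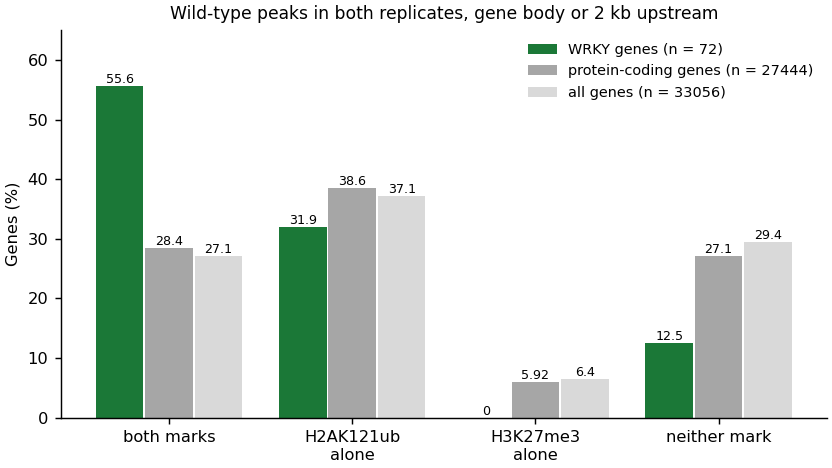
Percentage of genes (y axis) with wild-type peaks of both marks, of H2AK121ub alone, of H3K27me3 alone or of neither (x axis), for 72 WRKY genes, 27444 protein-coding genes and 33056 genes in all. Bars for WRKY genes stand at 55.6% for both marks, where all genes stand at 27.1%, and at 0 for H3K27me3 alone.

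The 9 genes with neither mark were WRKY1, WRKY3, WRKY16, WRKY19, WRKY34, WRKY39, WRKY44, WRKY64 and WRKY74. This class means no wild-type peak in both replicates. A wild-type H2AK121ub peak was called at WRKY3 in replicate 1 only and at WRKY44 in replicate 2 only. WRKY44 is TTG2, which acts in trichome and seed coat development, WRKY34 acts in pollen, and WRKY16 and WRKY19 encode long proteins in which a WRKY domain is joined to immune receptor domains. Genes with H2AK121ub alone included WRKY33, which is needed for camalexin production, WRKY22, which acts downstream of flagellin perception, WRKY46 and WRKY53, which act in basal resistance and leaf senescence, and WRKY52, the immune receptor RRS1. Both marks lay at WRKY18 and WRKY40, which act together in responses to pathogens and abscisic acid. At WRKY18 and WRKY40, the peaks that stand for the gene in the atbmi1abc comparisons lay wholly upstream of it for both marks. Both marks also lay at WRKY70 and WRKY54 of salicylic acid signalling and at WRKY38 and WRKY62, which restrain basal defence. WRKY75, a gene of the phosphate starvation response, had both marks as well.

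The marks were also set against the number of WRKY domains, which was found by translating the annotated coding sequence of each gene. The 21 bases that encode the family's signature were found in all 72 genes and were not split by an intron in any. Of 12 genes with a pair of domains (group I), 1 had both marks, 7 had H2AK121ub alone and 4 had neither. Of 44 genes with 1 domain and a C2H2 zinc finger (group II), 31 had both marks (70.5%), 10 had H2AK121ub alone and 3 neither. Of 13 genes with a C2HC finger (group III), 7 had both marks, 5 H2AK121ub alone and 1 neither. WRKY58 was the group I gene with both marks. The last 3 genes, WRKY19, WRKY36 and WRKY52, had 1 domain in which the zinc finger letters searched were not found.

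H2AK121ub peaks of WRKY genes lay mostly inside the coding part of the gene. The most-read peak overlapped the gene body at 54 of the 63 marked WRKY genes (85.7%) in each replicate, against 58.6% and 58.8% of all marked genes. A peak of any size overlapped it at 93.7% in each replicate, against 73.7% and 73.9%. The centre of the most-read peak lay at a median of 517 and 541.5 bp downstream of the gene start in replicates 1 and 2 (all genes 237 and 234.5 bp). By length, a median of 60.4% and 60.9% of the peak was coding sequence, 12.3% and 12.8% intron and 5.17% in both replicates 5′ UTR. Coding sequence was the largest part at 45 and 44 genes, and sequence upstream of the gene at 11 in both replicates. Parts were assigned by the transcript with the longest coding sequence, and the WRKY20 peak lay wholly in a stretch that only other transcripts of that gene cover. H3K27me3 peaks were longer, with a median of 3593 and 3334 bp (all genes 2061 and 2086 bp), and the most-read one overlay the start at 65% of the 40 genes in each replicate (all genes 40.5% and 41.6%). All H3K27me3 peaks of a gene together covered a median of 100% and 99.4% of the WRKY gene (all genes 56.6% and 57.1%).

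**Figure D2:**
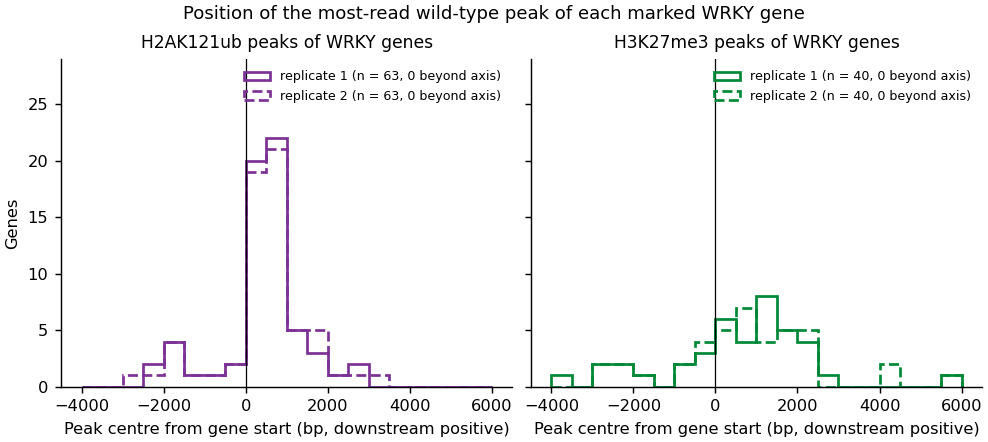
Number of WRKY genes (y axis) by the distance in bp from the gene start to the centre of the most-read wild-type peak (x axis, 500-bp bins, downstream positive), for H2AK121ub at 63 genes and H3K27me3 at 40 genes. Solid lines are replicate 1 and dashed lines replicate 2, and H2AK121ub centres gather in the kilobase after the start, with medians of 517 and 541.5 bp.

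The signature DNA is shown for 4 genes because the H2AK121ub peak covers it in some and stops short of it in others. It is printed 5′ to 3′ on the coding strand, with the sixth codon, which differs among members, in capitals.
WRKY23: tggcgaaaatatggtCAAaaa
WRKY75: tggaggaaatatggcCAAaag
WRKY59: tggaggaaatacggaAAGaag
WRKY17: tggagaaagtatggaCAAaaa
These lie in coding exons on the minus strand of TAIR10.1 at chr2:19405776-19405796, chr5:4150786-4150806, chr2:9335762-9335782 and chr2:10437970-10437990. The sixth codon was CAA in 43 genes, CAG in 26 and AAG in 3, WRKY50, WRKY51 and WRKY59. The most-read H2AK121ub peak covered the signature of the last domain in both replicates at 20 genes, WRKY23 and WRKY75 among them, but not at WRKY59 or WRKY17. H3K27me3 peaks covered it at 33 and 31 of 40 genes.

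The 6 densest H2AK121ub peaks were those of WRKY17, WRKY11, WRKY65, WRKY23, WRKY7 and WRKY30. WRKY17, which acts with WRKY11 as a negative regulator of basal resistance, had 1534 and 1603 reads in the 2 wild-type libraries. Its peak, at chr2:10438453-10439392, came to 1662 reads per kb of peak and the 99.8th percentile of all wild-type H2AK121ub peaks. WRKY11 followed with 1128 and 870 reads and 1162 per kb. Both carried H2AK121ub alone in the controls of atbmi1abc. The other genes of the 6 ranged from 668 reads per kb at WRKY30 to 829.9 at WRKY65. For H3K27me3 the 6 densest were WRKY13, WRKY48, WRKY28, WRKY12, WRKY72 and WRKY62, from 626 reads per kb at WRKY13 to 423.5 at WRKY62. WRKY13 and WRKY12 act in stem secondary walls and flowering, and the WRKY13 peak, at chr4:18332487-18335080, held 1802 and 1447 reads. Medians over the marked WRKY genes were 388 and 392.2 reads per kb for H2AK121ub (all genes 430.6 and 427.4) and 377.1 and 294.1 for H3K27me3 (all genes 325.7 and 253.6).

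Promoters are shown for 4 genes that the results below turn on, as the 250 bases before the annotated start, 5′ to 3′ on the strand of the gene, with W-box letters (TTGACC or TTGACT, or their complement on the other strand) in capitals.
WRKY75: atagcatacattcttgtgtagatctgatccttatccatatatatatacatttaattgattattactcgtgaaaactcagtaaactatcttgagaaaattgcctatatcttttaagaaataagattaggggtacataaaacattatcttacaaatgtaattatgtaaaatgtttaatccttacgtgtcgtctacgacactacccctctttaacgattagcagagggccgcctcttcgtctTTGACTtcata
WRKY30: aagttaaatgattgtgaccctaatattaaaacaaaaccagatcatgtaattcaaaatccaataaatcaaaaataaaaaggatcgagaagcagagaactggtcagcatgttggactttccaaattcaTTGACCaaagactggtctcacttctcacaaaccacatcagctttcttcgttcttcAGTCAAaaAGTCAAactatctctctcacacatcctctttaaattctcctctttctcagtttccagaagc
WRKY33: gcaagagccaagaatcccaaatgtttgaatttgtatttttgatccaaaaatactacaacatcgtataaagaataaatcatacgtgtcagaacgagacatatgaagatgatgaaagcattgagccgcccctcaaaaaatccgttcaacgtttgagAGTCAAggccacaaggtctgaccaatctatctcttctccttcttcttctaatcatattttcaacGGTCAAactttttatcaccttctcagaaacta
WRKY17: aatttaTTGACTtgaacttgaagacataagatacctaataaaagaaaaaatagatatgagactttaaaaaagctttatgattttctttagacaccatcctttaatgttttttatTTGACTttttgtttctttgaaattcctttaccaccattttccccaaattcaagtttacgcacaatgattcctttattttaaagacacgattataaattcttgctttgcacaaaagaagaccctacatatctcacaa
They come from TAIR10.1, at chr5:4151202-4151451, chr5:8154711-8154960 and chr2:10439470-10439719 on the minus strand for WRKY75, WRKY30 and WRKY17, and at chr2:16107985-16108234 on the plus strand for WRKY33. The window of WRKY75 lay wholly under peaks of both marks in both replicates. W-box letters were present in 25 of 72 WRKY promoters (34.7%), against 27.8% of all promoters of that length, and 2 or more in 10 (13.9%, all genes 5.7%). Among genes with H2AK121ub alone, 13 of 23 WRKY promoters had them (56.5%, all genes of that class 28.4%), against 10 of 40 with both marks (25%, all genes of that class 27.6%). The letters GAGAGA on either strand were in 17 WRKY promoters (23.6%, all genes 20.7%), and AAACCCTA in 1, that of WRKY6 (1.39%, all genes 4.58%). None of these motifs contains another, and a match is a description of the sequence, not a binding site.

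In atbmi1abc, H2AK121ub was reduced at 32 of 65 WRKY genes with a peak in both replicate tables (49.2%), against 66.4% of the 22055 genes tested, and increased at 0, against 0.635%. With total reads as library size, 7 were reduced (all genes 24.3%) and 30 increased (all genes 25.4%). At an unadjusted p under 0.05 the edgeR test also had 0 higher, and the share of all genes at that limit is not given here. But DESeq2, which uses its own size factors, called 12 increased (all genes 9.96%). The median log2 ratio at WRKY genes was −1.02 in replicate 1 and −0.44 in replicate 2 (49.3% and 73.6% of wild type), where the median over all genes was −1.22 and −0.75 (42.9% and 59.6%). The difference between these medians was 0.25 ± 0.07 (SD, n = 2 replicates), and WRKY genes were higher in both. All 65 lay below 0 in replicate 1 and 56 in replicate 2, and the share of all genes below 0 is not given here. Within the genes with both marks, WRKY genes had medians of −0.97 and −0.46, against −1.19 and −0.73 for all genes, and within H2AK121ub alone −1.03 and −0.60 against −1.28 and −0.83.

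The number of WRKY genes that count as reduced changed with the scaling. With total reads over all regions of the table as library size, the median over all genes moved from −1.22 and −0.75 to 0.02 and 0.04. The difference between the WRKY and all-gene medians was then 0.20 and 0.29 in the 2 replicates, so it stayed on the same side. In the other comparisons, the median over all genes with that scaling was 0.02 and 0.03 for H2AK121ub in clfswn, −0.06 and −0.03 in lhp1, 0.04 and 0.04 for H3K27me3 in atbmi1abc and −0.88 and −0.87 in clfswn. The 7 genes reduced under both scalings were WRKY59, WRKY72, WRKY75, WRKY33, WRKY23, WRKY30 and WRKY24. Total reads put the all-gene H2AK121ub median in atbmi1abc near 0, so this scaling cannot show a fall that most peaks share. Calls of increase under it are relative to the other peaks. The paper reported a global fall of H2AK121ub in this mutant, by western blot and ChIP-qPCR, and limited the peaks behind its rescaling for that reason.

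WRKY59 lost most of its H2AK121ub in atbmi1abc. Its peak at chr2:9333965-9334544, over coding sequence (38.4%), intron (29.8%) and 3′ UTR (31.7%), held 148 and 195 reads in wild type and 16 and 16 in the mutant, a fitted log2 ratio of −3.33 (adjusted p = 4.95e-12, edgeR quasi-likelihood test, Benjamini-Hochberg). The wild-type and mutant reads did not overlap, and no peak was called there in the mutant. WRKY72, which acts in basal immunity, had 398 and 488 reads in wild type and 86 and 87 in atbmi1abc (log2 −2.25), in a peak that lay upstream of the gene, at chr5:4903033-4903923. WRKY75 had 566 and 537 reads in wild type and 131 and 143 in atbmi1abc (log2 −1.90). At WRKY75 the peak spanned the start, with 70.1% of its length upstream, and these 3 genes had no mutant peak in either replicate.

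The next lowest were WRKY26, WRKY33 and WRKY23. WRKY26, a heat response gene, rested on few reads, 66 and 88 in wild type and 15 and 36 in the mutant (log2 −1.58). WRKY33 had 379 and 263 reads in wild type and 100 and 98 in the mutant (log2 −1.57), in a peak that lay wholly upstream and was also assigned to a neighbouring gene, as was that of WRKY26. WRKY23, an auxin-dependent gene of root development, had 1288 and 1392 reads in wild type and 405 and 446 in the mutant, at chr2:19405092-19406679 (log2 −1.53 fitted, −1.51 and −1.54 in the replicates). WRKY23 kept a called peak in the mutant, and its replicates were the closest of these 6. The 6 reduced genes with the smallest change were WRKY45, WRKY43, WRKY11, WRKY65, WRKY54 and WRKY27, with fitted log2 ratios from −0.87 to −0.70.

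Among genes that did not pass the test in atbmi1abc, several kept H2AK121ub near the level of wild type on the rescaled scale. WRKY29, an early flagellin response gene, had 290 and 276 reads in wild type and 225 and 300 in the mutant (log2 −0.21 and 0.21, chosen after its values were seen). WRKY14, WRKY31 and WRKY8 had fitted ratios of −0.10, 0.21 and 0.07. WRKY7, which is close in sequence to WRKY11 and WRKY17, had 826 and 857 reads in wild type and 603 and 771 in the mutant (log2 −0.29 and −0.05). With total reads as library size these 5 genes counted as increased. WRKY17 fell to 603 and 836 from 1534 and 1603 (log2 −1.18 and −0.83, adjusted p = 0.00203, edgeR).

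**Figure D3:**
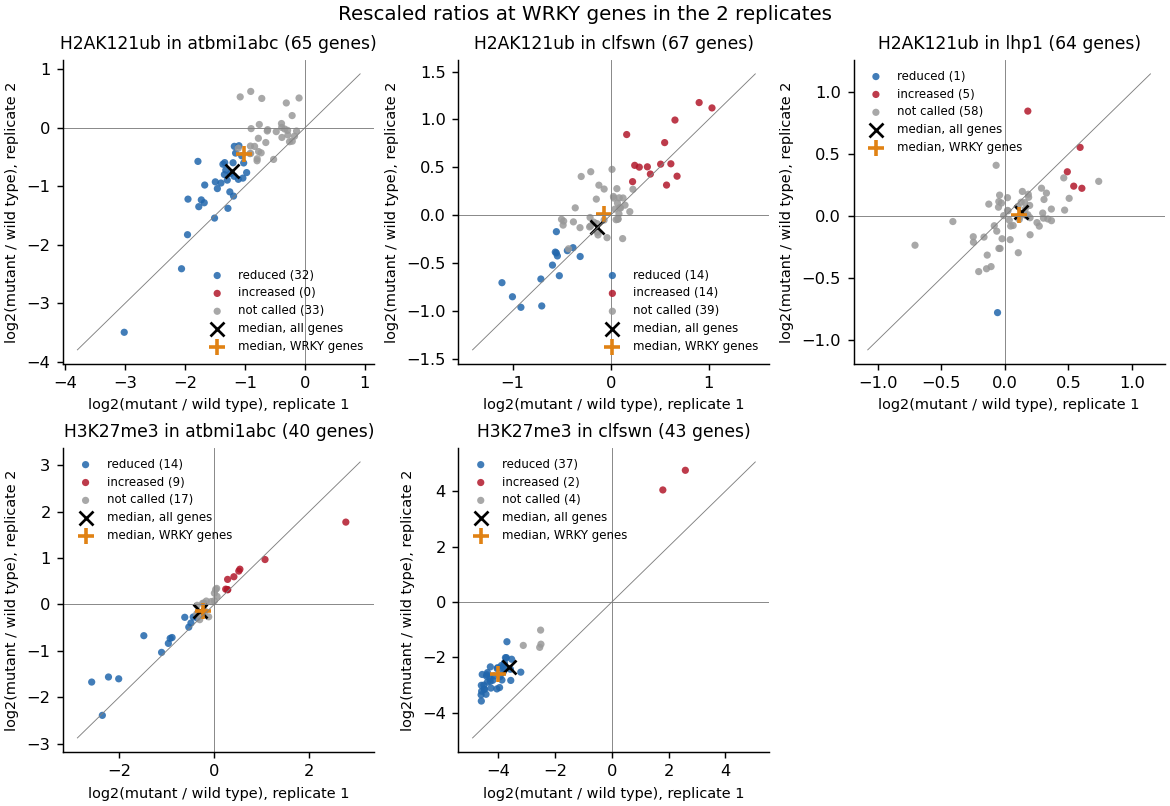
Rescaled log2 ratio of mutant to wild type in replicate 1 (x axis) and replicate 2 (y axis) for each WRKY gene, 1 panel for each of the 5 comparisons. Points are coloured by call, the cross marks the median of all genes and the plus that of WRKY genes, and the plus lies above and right of the cross for H2AK121ub in atbmi1abc and below and left of it for H3K27me3 in clfswn.

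In clfswn, H2AK121ub stayed near wild type in the median but went both ways at single WRKY genes. The median log2 ratio was −0.07 and 0.01 in replicates 1 and 2, against −0.14 and −0.12 over all genes, a difference of 0.10 ± 0.05 (SD, n = 2). Of 67 WRKY genes, 14 were reduced (20.9%), against 29.5% of 23671 genes, and 14 increased (20.9%), against 12.3%. Among the reduced genes, WRKY6, WRKY12, WRKY42 and WRKY51 each also had another peak that was called increased. Of the 14 reduced, 8 were also reduced with total reads as library size (all genes 17.9%). All 14 increased genes stayed increased, of 19 in all (all genes 21.6%). The changes were small, with reduced genes at log2 −0.95 to −0.36 and increased ones at log2 0.28 to 1.08. Without the replicate pairs as a block, 4 genes were reduced (all genes 6.01%) and 2 increased (all genes 1.37%).

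The 6 lowest were WRKY41, WRKY11, WRKY21, WRKY50, WRKY30 and WRKY57, and the first 4 had H2AK121ub alone in wild type. WRKY11 fell from 1128 and 870 reads in wild type to 549 and 467 in clfswn (log2 −0.93, adjusted p = 1.79e-21, edgeR quasi-likelihood test, Benjamini-Hochberg). WRKY41 had fewer reads, 124 and 125 against 63 and 62 (log2 −0.95). WRKY50, which acts in the repression of jasmonate responses by salicylic acid, had 371 and 420 against 221 and 211 (log2 −0.83). The WRKY50 peak lay wholly upstream of the gene and was also assigned to another gene. In all 3, both mutant libraries lay below both wild-type libraries. WRKY30 and WRKY57 carried both marks and had fitted ratios of −0.69 and −0.58.

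The 6 highest were WRKY14, WRKY68, WRKY31, WRKY74, WRKY13 and WRKY22. WRKY14 had 294 and 278 reads in wild type and 589 and 588 in clfswn, at chr1:10868424-10869219, a log2 ratio of 1.08 (adjusted p = 3.06e-21, edgeR quasi-likelihood test, Benjamini-Hochberg). WRKY68 had 91 and 79 against 166 and 175 (log2 1.05), and WRKY31 had 179 and 171 against 275 and 332 (log2 0.83). These 3 genes carried both marks in wild type, and all of their mutant reads lay above their wild-type reads. WRKY74, with neither mark in wild type, had a peak in clfswn only, with 204 and 208 reads against 143 and 126 (log2 0.66). It entered the test only through that mutant peak, a choice that favours an increase. WRKY13 and WRKY22 had ratios of 0.58 and 0.53. Of 40 WRKY genes with both marks in wild type, 8 were reduced (20%, all genes of that class 20.8%) and 10 increased (25%, all genes of that class 16.1%). Of 23 with H2AK121ub alone, 6 were reduced (26.1%, all genes of that class 41.4%) and 3 increased (13%, all genes of that class 5.73%).

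In lhp1, few WRKY genes passed the test. H2AK121ub was reduced at 1 of 64 WRKY genes (1.56%), against 0.844% of 22512 genes, and increased at 5 (7.81%), against 9.71%. The median log2 ratio was 0.11 and 0.01 in the 2 replicates, against 0.13 and 0.03 for all genes. WRKY28, an activator of the salicylic acid synthesis gene ICS1, rose the most, from 949 and 918 reads in wild type to 1639 and 1368 in lhp1 (log2 0.57, adjusted p = 0.000151, edgeR quasi-likelihood test, Benjamini-Hochberg). It was the 1 gene that also counted as increased with total reads as library size (all genes 6.16%). Under that scaling 6 were reduced (all genes 3.86%). The others were WRKY3, WRKY14, WRKY8 and WRKY72, with ratios from 0.49 to 0.39. WRKY22 was the reduced gene (log2 −0.43), but its replicates differed, at −0.06 with 200 reads in wild type and 212 in lhp1 and −0.78 with 322 and 192. Without the replicate pairs as a block, or by DESeq2, 0 WRKY genes were called in either direction. Of all genes, 0.0% were reduced and 0.0133% increased without the block, and 0.195% and 0.973% by DESeq2. At an unadjusted p under 0.05 the edgeR fit with the block had 10 WRKY genes higher and 3 lower. The share of all genes at that limit is not given here, and the all-gene medians also lay above 0. Nothing particular to WRKY genes is read from these counts.

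H3K27me3 in atbmi1abc changed in both directions at WRKY genes. Of 40 genes with a peak in both replicate tables, 14 were reduced (35.0%), against 42.8% of 12697 genes, and 9 increased (22.5%), against 23.4%. The median log2 ratio was −0.23 and −0.15 in replicates 1 and 2, against −0.30 and −0.14 over all genes. That difference, 0.03 ± 0.05 (SD, n = 2), was within the spread between replicates. Within genes that had both marks in wild type, however, WRKY genes lay higher in both replicates. Medians there were −0.24 and −0.17 for 39 WRKY genes and −0.49 and −0.33 for all 8828 genes. In that class 35.9% of WRKY genes were reduced and 20.5% increased, against 54.4% and 10.5% of all genes. With total reads as library size, 9 of the 14 were still reduced (all genes 31.5%). All 9 increased genes stayed increased, of 14 in all (all genes 35.8%). Without the replicate pairs as a block, 7 were reduced (all genes 25.1%) and 2 increased (all genes 9.66%). Stricter level limits left 9 and 4 (all genes 32.9% and 17.3%).

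WRKY23, WRKY75, WRKY63 and WRKY43 lost most H3K27me3 in atbmi1abc. WRKY23 fell from 1134 and 886 reads in wild type to 220 and 170 (log2 −2.37, adjusted p = 8.39e-51, edgeR quasi-likelihood test, Benjamini-Hochberg), which is 19.6% and 19.1% of wild type. WRKY75 fell from 556 and 392 reads to 93 and 124 (log2 −2.12). WRKY63, which is ABO3 and acts in abscisic acid and drought responses, fell from 600 and 455 to 128 and 155 (log2 −1.89). Its peak, at chr1:24844936-24846616, lay wholly upstream of the gene, which starts at 24848320, so the loss was not measured over the gene. None of the 4 had a called peak in the mutant, and mutant and wild-type reads did not overlap at any of them. WRKY43 had a ratio of −1.83 on fewer reads, 149 and 114 against 37 and 38, in a peak also assigned to 2 other genes. That peak, at chr2:18957798-18958570, lay mostly downstream of the gene, which ends at 18957925. WRKY30 and WRKY6, the latter a gene of senescence and phosphate homeostasis, kept a peak at log2 −1.12 and −1.07.

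WRKY70 gained H3K27me3 in atbmi1abc. It had 600 and 527 reads in wild type and 1221 and 1016 in the mutant, at chr3:20906981-20909900, a log2 ratio of 1.02 (adjusted p = 5.1e-16, edgeR quasi-likelihood test, Benjamini-Hochberg). WRKY16, with neither mark in wild type, had 16 and 24 reads there and 115 and 86 in the mutant (log2 2.30), in a peak called in atbmi1abc in both replicates and in wild type in neither. It entered the test only through that mutant peak, a choice that favours an increase, and the peak lay wholly upstream of the gene. The peaks of WRKY70 and WRKY16 were each also assigned to another gene. WRKY47, WRKY9, WRKY38 and WRKY10 had ratios of 0.65, 0.62, 0.51 and 0.41, and WRKY10 is MINI3, which controls seed size through the endosperm. WRKY38 held 1746 and 1248 reads in wild type and 2237 and 1845 in the mutant, so that the range in wild type and that in the mutant did not overlap.

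**Figure D4:**
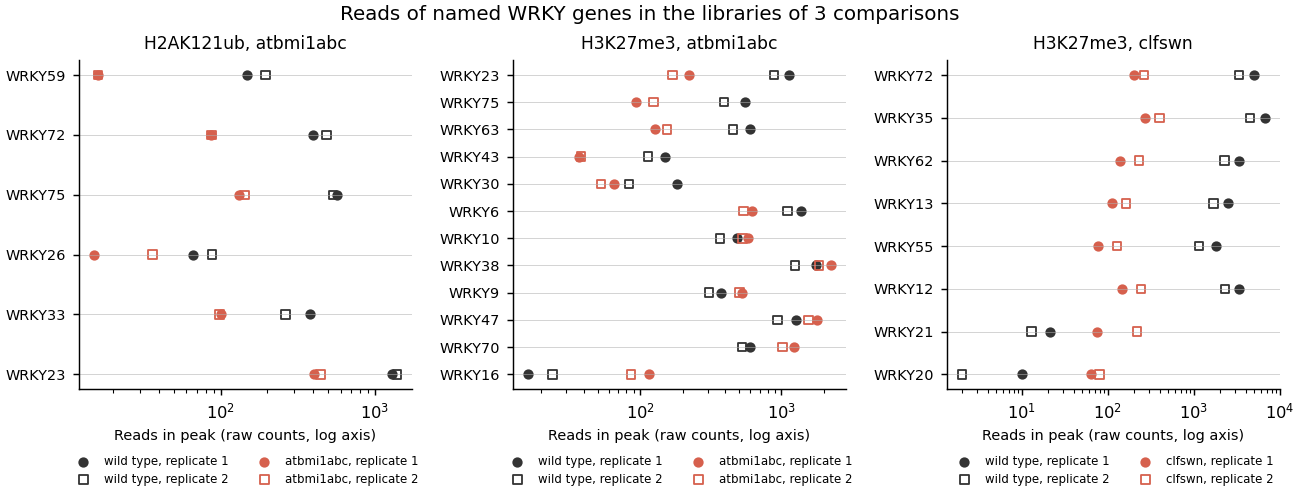
Raw reads in the peak of named WRKY genes (x axis, log scale) in each of the 4 libraries of a comparison, for H2AK121ub in atbmi1abc, H3K27me3 in atbmi1abc and H3K27me3 in clfswn. Dark symbols are wild type, red symbols the mutant, circles replicate 1 and squares replicate 2, and the red symbols lie left of the dark ones at WRKY59, WRKY23 and WRKY75 and right of them at WRKY16 and WRKY70.

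In clfswn, H3K27me3 was lost at nearly every WRKY gene that carried it. Of 43 WRKY genes with a matched peak, 37 were reduced (86.0%), against 70.7% of 13736 genes, and 2 increased (4.65%), against 9.98%. The median log2 ratio was −4.02 and −2.61 in replicates 1 and 2 (6.17% and 16.4% of wild type), lower than the all-gene medians of −3.61 and −2.33 (8.19% and 19.9%). The difference was −0.35 ± 0.09 (SD, n = 2), and it was −0.41 and −0.33 with total reads as library size. Within genes that had both marks in wild type, however, the medians were close, −4.04 and −2.64 for 40 WRKY genes and −3.89 and −2.57 for all 8709 genes, with 92.5% and 86% reduced. The rescaling line of these tables had only 75 and 144 common regions to draw on. With total reads as library size 36 WRKY genes were reduced (all genes 63.9%). The count was 31 with TMM normalization (all genes 43.3%) and 27 with DESeq2 (all genes 37.7%).

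The 6 lowest were WRKY72, WRKY35, WRKY62, WRKY13, WRKY55 and WRKY12, with fitted log2 ratios from −4.09 to −3.82 and the same adjusted p of 0.029 by edgeR. WRKY72 went from 5000 and 3351 reads in wild type to 201 and 263 in clfswn, at chr5:4901031-4907102, which is 4.15% and 8.41% of wild type. WRKY35 went from 6685 and 4466 reads to 267 and 400. WRKY13, the densest in wild type, went from 2460 and 1696 reads to 111 and 162. Mutant reads were a small part of wild-type reads at each of these genes, and none had a called peak in clfswn. The 3 genes with both marks that missed the call were WRKY70, WRKY30 and WRKY43, with adjusted p-values by edgeR of 0.0669, 0.0695 and 0.0806 and fitted ratios of −2.35, −2.11 and −2.02. The fourth gene without a call was WRKY17.

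WRKY21 and WRKY20 were the increased genes. Both had H2AK121ub alone in wild type, with 21 and 13 H3K27me3 reads at WRKY21 and 10 and 2 at WRKY20. In clfswn the same stretches held 74 and 217 reads at WRKY21 and 64 and 80 at WRKY20, as short peaks called in the mutant only, at chr2:13033756-13034152 and chr4:13440415-13440657. Fitted log2 ratios were 2.97 and 3.71 (adjusted p = 0.029 for each, edgeR quasi-likelihood test, Benjamini-Hochberg), on counts far below those of the marked genes. Both stretches entered the test only because a peak was called in the mutant. That choice favours an increase, so these p-values are no support for a gain. At WRKY21 H2AK121ub was reduced in clfswn, from 173 and 143 reads to 77 and 85 (log2 −0.92), while at WRKY20 it was 270 and 300 in wild type and 301 and 299 in clfswn.

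Both marks could be compared in atbmi1abc at 39 WRKY genes. H2AK121ub was reduced at 18 and H3K27me3 at 14, and 9 genes were reduced in both: WRKY6, WRKY23, WRKY24, WRKY30, WRKY40, WRKY43, WRKY59, WRKY72 and WRKY75. Of the other 9 with reduced H2AK121ub, 7 had no H3K27me3 call and 2, WRKY70 and WRKY54, had more H3K27me3. With total reads as library size 5 were reduced in both marks, WRKY23, WRKY30, WRKY59, WRKY72 and WRKY75, and all 5 are among the 9. At WRKY43 the peaks of the marks did not overlap, with H2AK121ub at chr2:18956805-18957683 and H3K27me3 at chr2:18957798-18958570. Among all genes with both marks in wild type, 65.1% were reduced in H2AK121ub and 54.4% in H3K27me3 on the rescaled scale. The share of all genes reduced in both is not given here, so nothing particular to WRKY genes is read from these overlaps. At WRKY70, H2AK121ub fell from 868 and 434 reads to 226 and 274 (log2 −1.18 fitted, −1.79 and −0.58 in the replicates) while H3K27me3 rose. The H2AK121ub peak of WRKY70 had other limits in each replicate, chr3:20908409-20910507 and chr3:20908334-20909558, so its reads are not comparable between replicates. Why the size of its loss differed between them was not tested. WRKY70 and WRKY54 act together in salicylic acid signalling. Across the 39 genes, which share libraries and are not independent replicates, the changes in H2AK121ub and H3K27me3 correlated with Spearman's rho of 0.344 (replicate 1) and 0.333 (replicate 2), where all 10459 genes that had both gave 0.396 and 0.446.

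**Figure D5:**
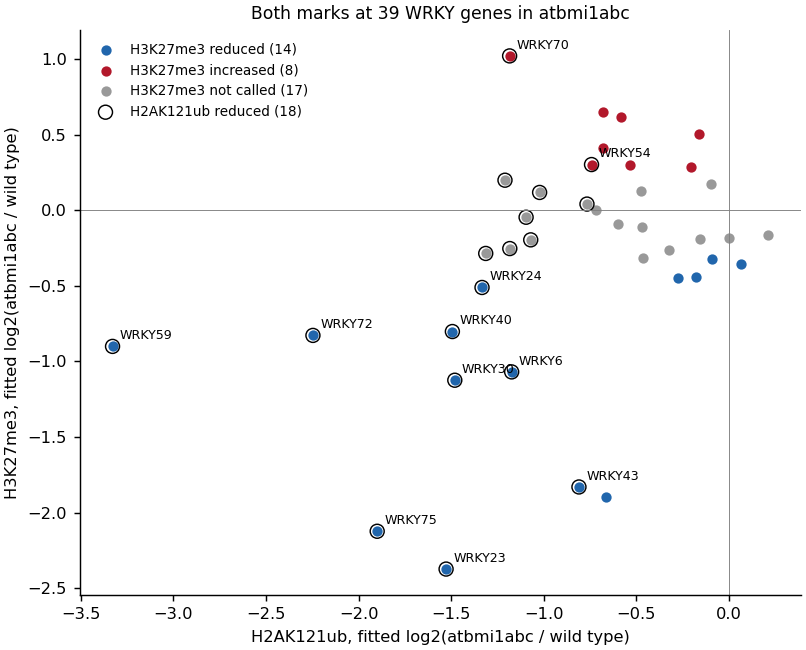
Fitted log2 ratio of atbmi1abc to wild type for H2AK121ub (x axis) and H3K27me3 (y axis) at 39 WRKY genes, coloured by the H3K27me3 call, with a ring where H2AK121ub was reduced. The 9 genes reduced in both marks lie at the lower left, and WRKY70 at 1.02 for H3K27me3 lies alone at the top.

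Grouped by known role, the WRKY genes did not fall on 1 side. Of 15 defence genes, 9 had both marks in wild type and 6 H2AK121ub alone, and in atbmi1abc 9 of 15 were reduced in H2AK121ub (all genes 66.4%), while of 9 with H3K27me3 1 was reduced (all genes 42.8%) and 3 increased (all genes 23.4%). Of 6 genes of senescence and nutrient responses, 3 were reduced in H2AK121ub, and of the 4 with H3K27me3 3 were reduced and 1 increased. Of 8 developmental genes, 5 had both marks, 1 had H2AK121ub alone and 2 neither, and 3 of 6 were reduced in H2AK121ub and 2 of 5 in H3K27me3, with 1 increased. In clfswn, H3K27me3 was reduced at 8 of 9 defence genes, 4 of 4 of senescence and nutrients and 5 of 5 of development, where 70.7% of all genes tested and 86% of those with both marks were reduced. These groups are small and were chosen with results known, and nothing particular to a group is read from their counts.

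The immune genes that act with WRKY factors, from pattern receptors and the MAP kinase cascade to salicylic acid signalling and defence outputs, were followed as a list of 37, all of which were found. In wild type 14 had both marks, 18 H2AK121ub alone, 0 H3K27me3 alone and 5 neither. H2AK121ub was reduced at 23 of 32 in atbmi1abc (all genes 66.4%), with the lowest ratio at EFR, the receptor for bacterial elongation factor Tu (log2 −2.56), and the smallest called change at PAD3, a camalexin enzyme (log2 −0.72). In clfswn 9 of 32 were reduced (all genes 29.5%), EFR again lowest (log2 −0.77), and EDS1, a hub of salicylic acid signalling, was the 1 increased (log2 0.34, all genes 12.3%). In lhp1 1 was reduced (all genes 0.844%), MPK4 (log2 −0.36), and 2 increased (all genes 9.71%), with MKK5 the highest (log2 0.53), and MPK4 and MKK5 are both kinases of the MAP kinase cascade. H3K27me3 in atbmi1abc was reduced at 6 of 19 (all genes 42.8%), with SAG101 lowest (log2 −1.15), and increased at 7 (all genes 23.4%), with SIB2, a WRKY partner, highest (log2 2.35). In clfswn H3K27me3 was reduced at 12 of 17 (all genes 70.7%), with SIB1 lowest (log2 −3.56), and increased at 2 (all genes 9.98%), with NPR3, a salicylic acid receptor, highest (log2 2.80). The median H2AK121ub ratio of the list in atbmi1abc was −1.15 and −0.63 in the 2 replicates, between those of WRKY genes and all genes.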

How the data were processed

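Chromatin of whole seedlings was sequenced in 21 samples, 1 of them input DNA. Per the labels and the study's methods, the authors aligned reads to the TAIR10 build using Bowtie, ran MACS2 on every library with the input as background, and counted reads in peaks. The deposited tables, 10 in all, give raw read counts for 1 mutant and 1 wild-type library, and the authors' rescaled log2 ratio (M) and mean intensity with a p-value per peak. These last columns hold the authors' comparison and were not reported. The log2 column the authors deposited was used only to recover the line by which they rescaled the mutant reads, fitted by robust regression over common peaks of little change, for atbmi1abc at genes without a change in expression. Recovered slopes ran from 0.98 to 1.06 and intercepts from −0.38 to 0.08.

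A region called in both libraries was counted once, with wild-type limits, and regions of the 2 replicate tables were matched where each was the best overlap of the other, with 1 bp or more shared. Genes came from TAIR10.1, whose chromosome lengths fit the peak coordinates except for 1 peak row that runs past the end of a chromosome. Coordinates are printed as deposited, and the base from which starts count is not given in the sources used here. Reads of matched peaks with a mean of at least 10 were fitted with edgeR 4.0.16 (R 4.3.3), in a model that had the rescaling in its offsets and the replicate as a block. The pairing comes from the labels, where every mutant library has its named wild-type control. Since a pair was counted at the same peak limits, a correlation of deviations within pairs would reflect those limits and was not taken as a check. The study describes its replicates as independent biological ones. With 2 pairs, the smallest two-sided p a sign-flip test can give is 0.5, so medians were set against the spread between replicates. Alternatives changed the scaling, model (DESeq2 1.42.0), block, read minimum, level limits, gene region and peak summing.

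Named genes are, in each comparison, the 6 lowest and 6 highest fitted ratios among WRKY genes past the call, the 6 densest wild-type peaks per mark and every gene with no mark, and of the immune list the lowest and highest called gene. The members and the role and immune lists were chosen with earlier results of these data known. Domain groups came from translated coding sequences of the annotation in place of a protein table, and promoters from the TAIR10.1 genome of RefSeq.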

Additional observations from a re-analysis of the deposited data

How the results depend on the processing

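The numbers of WRKY genes called changed with the scaling, the model, the level limits and the block. For H2AK121ub in atbmi1abc, 32 reduced and 0 increased became 7 and 30 with total reads as library size (all genes 24.3% and 25.4%). They became 7 and 26 with TMM (all genes 25.5% and 23.2%) and 5 and 12 with DESeq2 (all genes 14.1% and 9.96%). For H2AK121ub in clfswn, 14 reduced became 8 with total reads (all genes 17.9%) and 4 with DESeq2 (all genes 7.68%). The 14 increased became 8 with DESeq2 (all genes 5.73%). For H2AK121ub in lhp1, 1 reduced and 5 increased became 6 and 1 with total reads (all genes 3.86% and 6.16%). They became 3 and 1 with TMM (all genes 2.79% and 6.95%) and 0 and 0 with DESeq2 (all genes 0.195% and 0.973%). For H3K27me3 in atbmi1abc, 14 and 9 became 9 and 14 with total reads (all genes 31.5% and 35.8%). For H3K27me3 in clfswn, 2 increased became 5 with TMM (all genes 22.6%) and 1 with a minimum mean of 50 reads (all genes 6.26%). Level limits of 67% and 150% gave 6 and 4 for H2AK121ub in clfswn (all genes 14.5% and 4.36%). In lhp1 these limits gave 0 and 0 (all genes 0.271% and 3.7%), and for H3K27me3 in atbmi1abc 9 and 4 (all genes 32.9% and 17.3%). Summing all peaks of a gene gave 2 reduced in lhp1 (all genes 0.817%). Without the replicate pairs as a block, H2AK121ub in atbmi1abc gave 30 reduced and 0 increased genes (all genes 59.6% and 0.422%). In clfswn it gave 4 and 2 (all genes 6.01% and 1.37%), and lhp1 had 0 of either (all genes 0.0% and 0.0133%). H3K27me3 gave 7 and 2 in atbmi1abc (all genes 25.1% and 9.66%), then 41 and 2 for clfswn (all genes 87.6% and 10.2%). With total reads the median log2 ratio over both replicates moved from −0.73 to 0.27 for H2AK121ub in atbmi1abc, and from −3.32 to −1.25 for H3K27me3 in clfswn. Requiring peaks of at least the median reads lowered the wild-type H2AK121ub share from 87.5% to 55.6% (all genes from 64.2% to 42.1%). Leaving out a replicate gave shares from 88.9% to 90.3% for H2AK121ub and from 55.6% to 56.9% for H3K27me3. The cause of these differences was not tested. The other 68 alternatives left counts within 1.5 times and shares within their exact binomial interval. Depth limited the thinnest genes, with 15 to 88 reads at WRKY26 and 2 to 80 at WRKY20.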
